A study of Mus musculus with 24 samples.

Results

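The striatum of mice at postnatal day 14 (P14) was compared with that of young adult mice at P56. The libraries were chosen by their labels alone, and 10 of the 24 libraries of the series belong to the comparison, with 5 mice at each age. All were wild-type mice of C57BL/6 background, and the sources name no treatment. There were 4 males and 1 female at P14 and 2 males and 3 females at P56, and the male-specific gene *Ddx3y* matched these sexes in all 10 libraries. Each library holds RNA from 2 mm punches in which dorsal and ventral striatum were mixed, so it is a bulk sample of all cell types under the punch. The libraries were stranded and made from total RNA depleted of ribosomal RNA, and they were sequenced to between 77778136 and 111493718 reads counted on genes. The P7 libraries of the series entered no fit, and the 10 mPFC (medial prefrontal cortex) libraries of P14 and P56 were used where the change in striatum was set against that of a second region.

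The striatum is the input nucleus of the basal ganglia. Most of its neurons are GABAergic medium spiny neurons, which carry either the dopamine receptor gene *Drd1* (the direct pathway) or *Drd2* (the indirect pathway) and receive glutamatergic input from cortex and thalamus. Between the second postnatal week and adulthood these neurons gain mature firing properties and synapses, while oligodendrocyte precursors divide, pass through a brief premyelinating stage and wrap axons with myelin, a membrane rich in cholesterol. In bulk RNA a lower level of a cell type's genes can mean fewer such cells or less RNA per cell, and these cannot be told apart here.

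The striatal label held in all 10 libraries, but some punches also held RNA of neighbouring tissue. The 20 shared medium spiny neuron genes had a mean level, as log2(CPM + 0.5), of 8.72 to 9.04 in 4 of the 5 P14 libraries and of 8.43 to 9.47 in the P56 libraries. P14 striatum 1 lay below these, at 7.58. CPM are counts relative to the library's reads on genes, scaled by TMM. The 12 choroid plexus genes had a mean of 5.67 in P14 striatum 1 and 5.29 in P14 striatum 4, against 0.454 to 1.79 in the other P14 libraries and -0.037 to 1.00 at P56. *Ttr*, the transthyretin carrier protein of the choroid plexus, was at 4476, 0.0618, 18.2, 3538 and 1.15 CPM in P14 striatum 1 to 5 and 0.120, 1.04, 0.704, 0.281 and 0.0531 CPM in P56 striatum 1 to 5. The 11 cortical excitatory neuron genes stood at 4.37, 5.22 and 4.50 in P56 striatum 2, 3 and 4, at 3.86 in P14 striatum 2 and between 2.33 and 2.73 in the other 6 libraries. The 4 thalamus genes were at 5.29 in P14 striatum 1 and between 0.462 and 3.43 elsewhere, and ependyma genes spread from 0.087 to 4.11 over all 10 libraries. The part of these tissues in the results below was not tested.

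**Figure D1:**
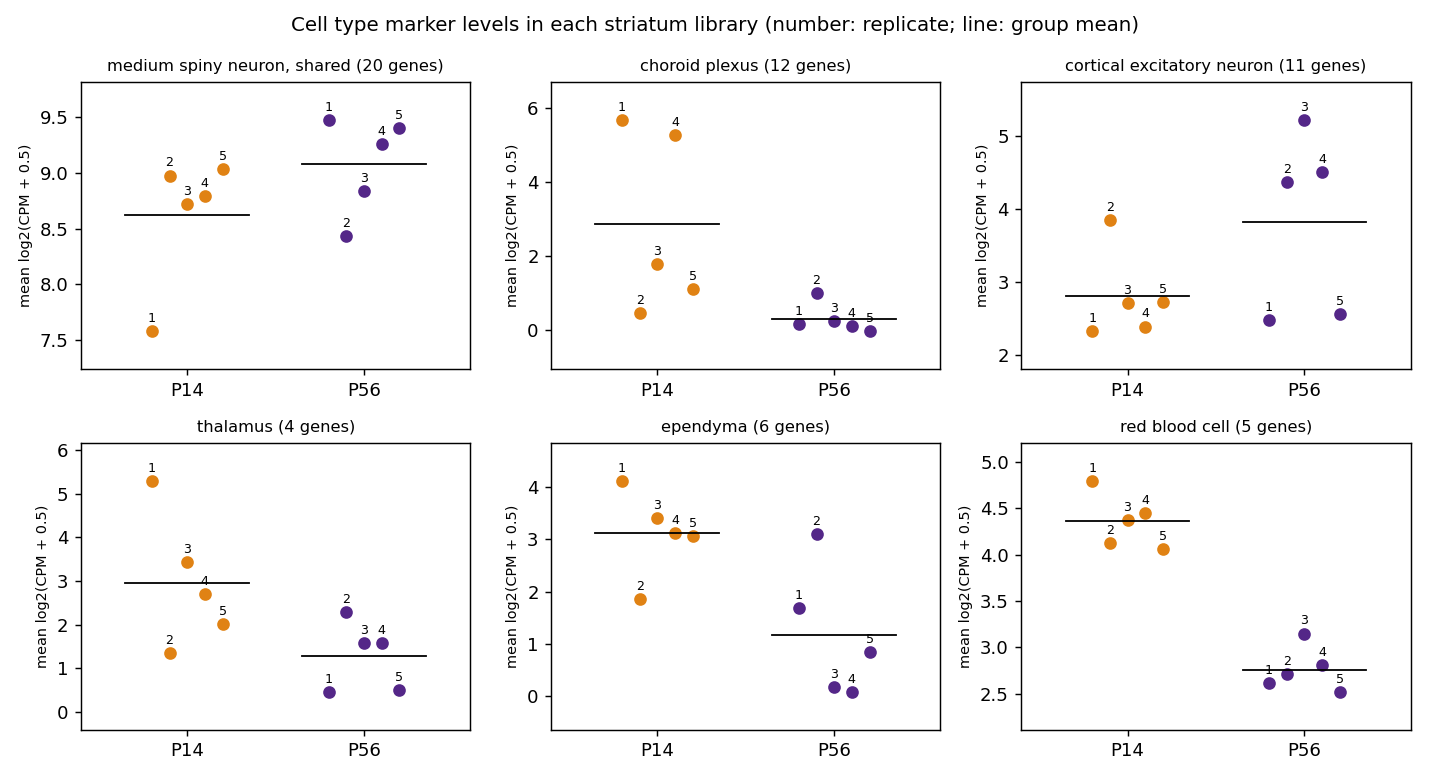
Mean log2(CPM + 0.5) of 6 marker lists (vertical axes) in each striatum library, with P14 in orange, P56 in purple, replicate numbers above the points and the group mean as a line. Choroid plexus genes stand at 5.67 and 5.29 in P14 libraries 1 and 4, cortical excitatory genes at 4.37 to 5.22 in P56 libraries 2 to 4, and the red blood cell genes of the P14 libraries all lie above those of the P56 libraries.

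Of 18952 genes tested with edgeR's quasi-likelihood test, 3036 were higher at P56 (16.0%) and 3721 were lower (19.6%) at a Benjamini-Hochberg adjusted p under 0.05. With a 2-fold change as a second threshold, 1916 genes were called (10.1%), of which 585 were higher (3.09%) and 1331 lower (7.02%). In 4473 genes (23.6%) the P14 and the P56 libraries did not overlap. The median log2 change of all genes tested was 0.003. Scaling by total counts moved this median to -0.12, and the called genes then split into 1853 higher and 4996 lower. Without P14 striatum 1 and 4 the calls fell to 1879 higher, 2327 lower and 1147 at 2-fold. Leaving out P14 striatum 1 and 4 and P56 striatum 2, 3 and 4 together gave 3325, 3737 and 2309. These are called the 5 libraries with neighbouring tissue below. P14 striatum 2, with cortical excitatory genes at 3.86, and P14 striatum 3, with thalamus genes at 3.43, stayed in that comparison.

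**Figure D2:**
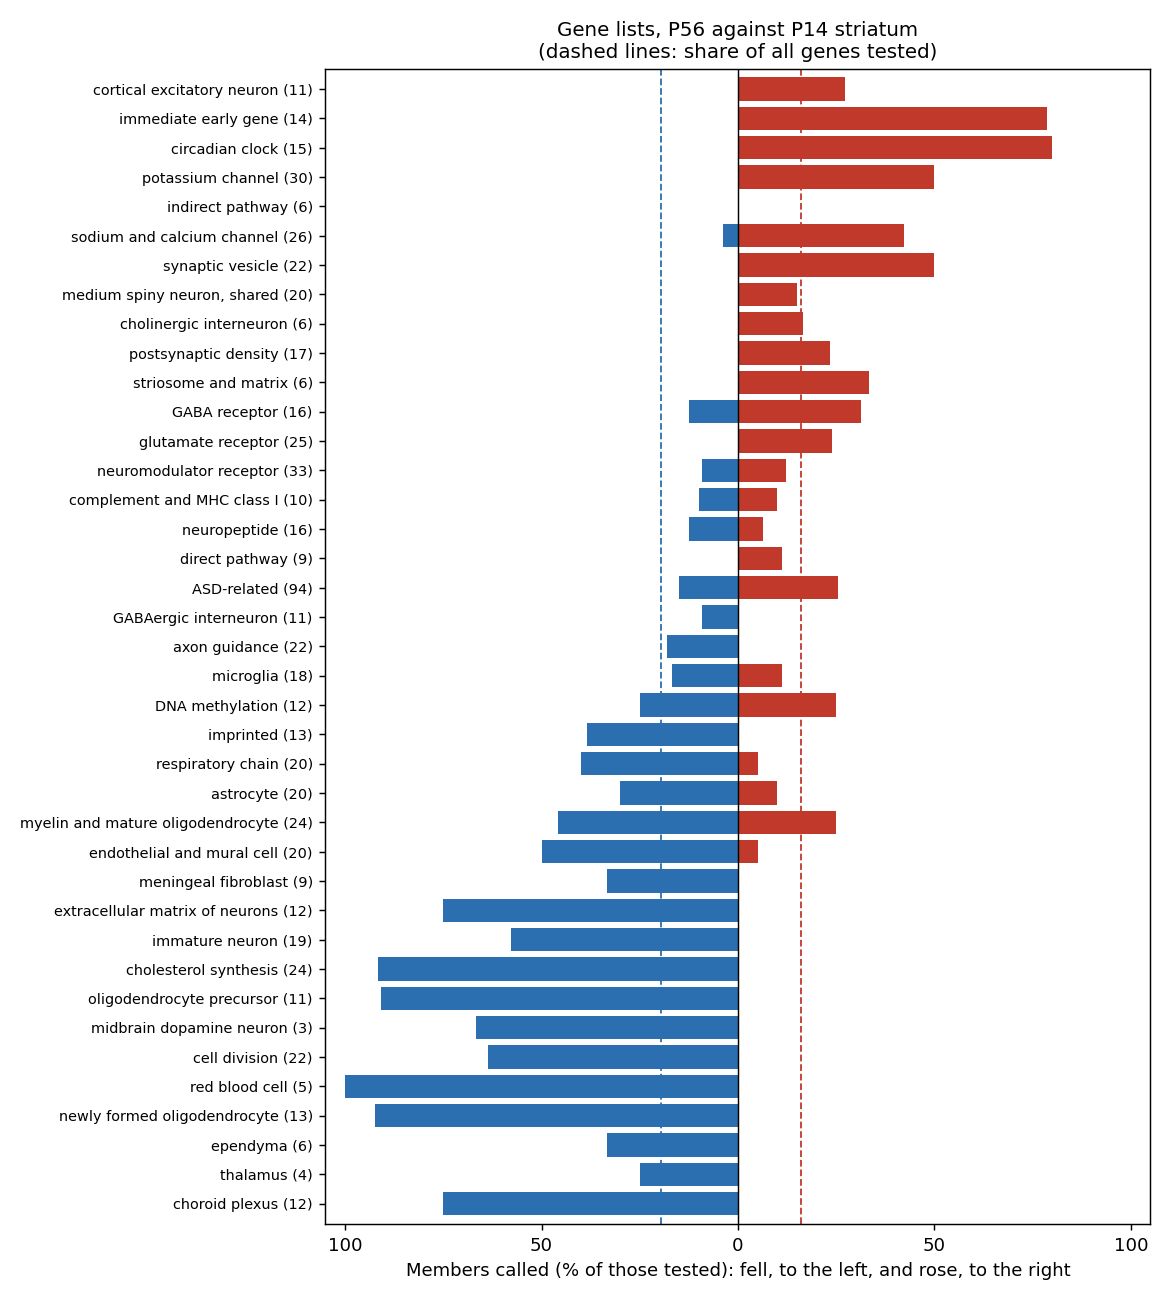
Share of the tested members of each gene list (percent, horizontal axis) that rose, in red to the right, or fell, in blue to the left, from P14 to P56 in striatum, with the number tested in brackets and the dashed lines at 16.0% and 19.6%, the shares of all genes. The lists are ordered by median log2 change, and the cortical excitatory neuron list, of which 3 of 11 rose, is the top row. Immediate early and clock genes follow with 11 of 14 and 12 of 15 members higher at P56. Cholesterol synthesis and oligodendrocyte precursor genes stand near the bottom with 22 of 24 and 10 of 11 lower.

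The protein-coding genes with the largest falls, among those with a mean of at least 5 CPM and groups that did not overlap, were *Casr*, *Aplnr*, *Igsf1*, *F5*, *Col9a3*, *AW551984*, *Ppic*, *Fabp7*, *Marcksl1*, *Tcfl5*, *A2m* and *Eln*. *Casr* (ENSMUSG00000051980, chr16:36493696-36562141, minus strand, GRCm38), which encodes the calcium-sensing receptor, stood at 31.3, 10.9, 20.5, 33.5 and 17.5 CPM in P14 striatum 1 to 5 and at 0.470, 0.994, 0.369, 0.596 and 0.518 CPM in P56 striatum 1 to 5. Every P56 library held less than 1 CPM, and the log2 change was -5.26 (SE 0.39, adjusted p = 1.9e-05). *Aplnr*, the apelin receptor of vessels, had 10.8, 10.7, 11.6, 10.9 and 14.2 CPM at P14 and 0.416, 0.303, 0.905, 0.303 and 0.319 CPM at P56 (log2 change -4.69, SE 0.32). *Fabp7*, a fatty acid binding protein of radial glia and young astrocytes, lay at 185, 95.1, 101, 120.5 and 84.3 CPM at P14 and 12.2, 16.8, 16.3, 12.1 and 14.2 CPM at P56 (log2 change -3.04, SE 0.22). Its P14 libraries all lay above its P56 libraries, with P14 striatum 1 the highest. *Eln*, the elastin of vessel walls, fell by 2.73 on the log2 scale, *Marcksl1*, a regulator of actin in growing neurites, by 3.01, and *Tcfl5* by 2.81. *F5* and *A2m* were highest in the 2 choroid plexus libraries, and without P14 striatum 1 and 4 their log2 changes went from -3.83 to -1.27 and from -2.76 to -1.76. *F5*, a coagulation factor gene, was at 33.2, 1.88, 2.08, 26.2 and 2.68 CPM in P14 striatum 1 to 5. Its log2 change was -1.08 without all 5 libraries with neighbouring tissue, and its fall did not pass once P56 striatum 2, 3 and 4 were left out (log2 change -3.66, adjusted p = 0.0976). *Igsf1* and *AW551984* had 1 high P56 library, P56 striatum 2, at 9.95 and 12.6 CPM.

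The largest rises by the same rule were those of *Igfbp6*, *Serpinb1a*, *Ddit4l*, *Ptpn7*, *Abca8a*, *Npas4*, *Il33*, *Gm16432*, *Morc2b*, *Tnfaip6*, *Hapln2* and *Jade2*. *Igfbp6* (ENSMUSG00000023046, chr15:102144362-102149511, plus strand), a binding protein for insulin-like growth factors, was at 1.04, 3.97, 1.17, 1.45 and 3.09 CPM in P14 striatum 1 to 5 and 14.8, 12.8, 27.4, 23.8 and 16.0 CPM in P56 striatum 1 to 5 (log2 change 3.15, SE 0.41, adjusted p = 0.000384). *Serpinb1a*, an inhibitor of serine proteases, showed 2.68, 0.693, 1.62, 1.38 and 1.34 CPM and then 16.0, 16.6, 9.54, 8.62 and 15.8 CPM (log2 change 3.11, SE 0.34). All P56 libraries stood well above the P14 range for both genes. *Il33*, which encodes a nuclear cytokine found in oligodendrocytes and astrocytes, ranged over 8.88 to 19.6 CPM at P14 and 43.2 to 67.0 CPM at P56, and *Ddit4l*, an inhibitor of mTOR signalling, over 5.24 to 7.57 and 15.5 to 46.1 CPM. *Jade2*, a subunit of a histone acetyltransferase complex, was the most abundant of the 12 at P56, at 64.3 to 83.1 CPM after 12.4 to 24.8 CPM at P14 (log2 change 1.85, SE 0.17, adjusted p = 5.36e-05).

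The oligodendrocyte lineage split by stage. Genes of oligodendrocyte precursors were lower at P56 in 10 of 11 cases and those of newly formed, premyelinating oligodendrocytes in 12 of 13, with none higher in either list, while the 24 genes of myelin and mature oligodendrocytes divided into 6 that rose, 11 that fell and 7 that did not pass. The median log2 changes were -1.19, -1.71 and -0.45, beside 0.003 over all genes. The myelin median was -0.06 without P14 striatum 1 and 4 and turned to 0.10 without all 5 libraries with neighbouring tissue, where 8 of the list rose and 5 fell. In the 3 lists, 8, 12 and 11 members had P14 and P56 libraries that did not overlap, beside 23.6% of all genes. Among all genes 16.0% rose and 19.6% fell.

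Among precursor genes, *Pdgfra*, the growth factor receptor that drives their division, went from 251, 173, 191, 239 and 177 CPM in P14 striatum 1 to 5 to 76.0, 87.9, 70.5, 73.4 and 82.1 CPM in P56 striatum 1 to 5. The lowest P14 library was about as far above the highest P56 library as the P14 libraries differed among themselves, and the log2 change was -1.40 (SE 0.12, adjusted p = 3.64e-05). *Cspg4*, the NG2 proteoglycan of the precursor surface, ranged over 27.7 to 41.9 CPM and then 10.8 to 20.5 CPM (log2 change -1.19), and *C1ql1*, a secreted protein of the C1q family, over 9.75 to 12.2 and 3.00 to 4.42 CPM (log2 change -1.66).

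Among genes of newly formed oligodendrocytes, *Enpp6* (ENSMUSG00000038173, chr8:46986925-47094895, plus strand), a choline phosphodiesterase that marks cells about to myelinate, had 133, 43.4, 66.8, 120.1 and 56.3 CPM at P14 and 15.4, 18.6, 9.28, 9.04 and 16.4 CPM at P56. P14 striatum 1 and 4, the choroid plexus libraries, were the highest, and all P14 libraries lay above all P56 libraries (log2 change -2.61, SE 0.35, adjusted p = 0.000413). *Gpr17*, a receptor that holds cells at the premyelinating stage, stood at 566, 317, 398, 568 and 358 CPM at P14 and 80.5, 96.6, 51.4, 66.2 and 60.6 CPM at P56 (log2 change -2.64, SE 0.22, adjusted p = 3.38e-05). *Bmp4*, a growth factor that these cells release, ranged over 10.5 to 18.4 CPM and 2.15 to 3.66 CPM, and *Casr*, described above, belongs to the same list. Without P14 striatum 1 and 4 the list's falls again numbered 12, and its median was -1.34.

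Among myelin genes, *Mog*, a protein of the outer myelin surface, was at 242, 69.6, 155, 262 and 134 CPM in P14 striatum 1 to 5 and 80.4, 103, 58.6, 53.2 and 88.6 CPM in P56 striatum 1 to 5. The 2 highest values were those of P14 striatum 1 and 4, the lowest P14 library lay inside the P56 range, and the log2 change was -1.17 (SE 0.33, adjusted p = 0.0192). Without P14 striatum 1 and 4 it did not pass (log2 change -0.65, adjusted p = 0.127), and the list's falls went from 11 to 5. It did not pass without P56 striatum 2, 3 and 4 either (adjusted p = 0.124), where again 5 genes of the list fell. *Ugt8a* and *Gal3st1*, the enzymes that make galactocerebroside and sulfatide for the myelin membrane, fell with groups that did not overlap. *Ugt8a* ranged over 230.1 to 842 CPM at P14 and 84.2 to 172 CPM at P56 (log2 change -2.18, SE 0.35, adjusted p = 0.00121), and *Gal3st1* changed by -2.16 (SE 0.29).

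The 6 members that rose were *Klk6*, *Il33*, *Hapln2*, *Anln*, *Car2* and *Apod*. *Klk6* (ENSMUSG00000050063, chr7:43824499-43832027, plus strand), a secreted serine protease of mature oligodendrocytes, was at 1.58, 0.396, 1.04, 1.53 and 0.760 CPM at P14 and 9.64, 7.92, 6.06, 5.17 and 10.5 CPM at P56 (log2 change 2.88, SE 0.37, adjusted p = 0.000331). *Hapln2*, a link protein of the matrix at nodes of Ranvier, had 3.96, 1.72, 4.98, 4.07 and 3.24 CPM and 15.9, 18.8, 11.9, 6.97 and 13.4 CPM (log2 change 1.90, SE 0.31, adjusted p = 0.00129). For both, each P56 library was higher than each P14 library, the reverse of the order seen for *Ugt8a*.

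**Figure D3:**
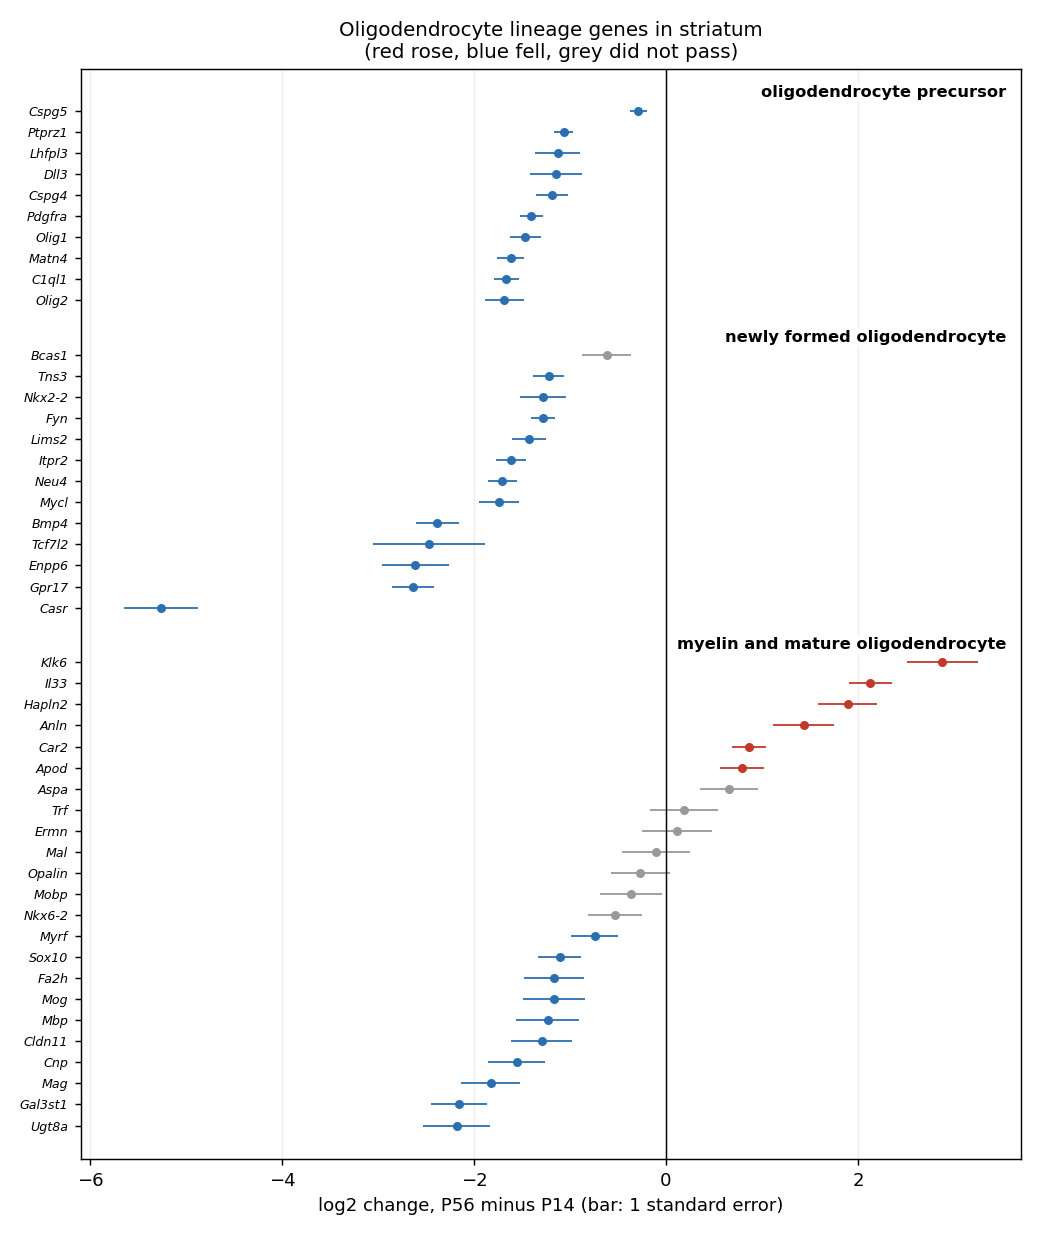
Log2 change from P14 to P56 in striatum (horizontal axis, 1 SE as bar) of tested genes of 3 oligodendrocyte lists, with genes that rose in red, fell in blue and did not pass in grey. All precursor and newly formed oligodendrocyte genes shown lie left of 0, and the myelin genes run from *Klk6* at 2.88 to *Ugt8a* at -2.18.

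Genes of cholesterol synthesis and uptake were lower at P56. Of 24 tested, 22 fell (all genes 19.6%) and 0 rose, with a median log2 change of -1.07. Groups did not overlap in 21 (all genes 23.6%). The falls numbered 22 whichever library was left out and 20 without P14 striatum 1 and 4. *Hmgcs1* (ENSMUSG00000093930, chr13:119690462-119708086, plus strand), the synthase that makes HMG-CoA, stood at 1113, 581, 754, 1127 and 692 CPM in P14 striatum 1 to 5 and 247, 305, 302, 271 and 289 CPM in P56 striatum 1 to 5. The P56 libraries lay within a narrow band far below the lowest P14 library (log2 change -1.59, SE 0.18, adjusted p = 0.000193). *Sqle*, squalene epoxidase, ranged over 87.9 to 137 CPM and 33.2 to 49.5 CPM (log2 change -1.41), *Tm7sf2*, a sterol reductase, changed by -1.14, and *Dhcr7*, which makes the last reduction to cholesterol, by -1.13 (SE 0.14, adjusted p = 0.000328). *Srebf2*, the transcription factor of the pathway, did not pass.

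SREBP2, the product of *Srebf2*, binds the sterol regulatory element. RefSeq promoters (GRCm38.p6, 250 bases before to 50 after each gene start) of 16 members were searched on both strands for 1 form of this element, TCACNCCAC. It was found in that of *Hmgcs1* alone (6.25%), against 1.44% of 27025 genes. The match, at chr13:119690184-119690252, plus strand, begins 137 bases before the gene start and is shown because *Hmgcs1* had the largest fall of the list, with the motif in capitals.
Hmgcs1: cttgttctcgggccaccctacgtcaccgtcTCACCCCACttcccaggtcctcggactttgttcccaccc

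Genes of dividing cells and of immature neurons were lower at P56 in most libraries, with P56 striatum 2 apart. Of 22 cell division genes 14 fell and 0 rose, with a median log2 change of -1.57, and of 19 immature neuron genes 11 fell and 0 rose, with a median of -1.04. The shares of all genes were 19.6% lower and 16.0% higher. *Top2a*, the topoisomerase of dividing cells, was at 39.4, 37.8, 40.6, 45.4 and 44.8 CPM in P14 striatum 1 to 5 and at 11.7, 41.3, 1.47, 1.33 and 3.90 CPM in P56 striatum 1 to 5. P56 striatum 2 lay within the P14 range and P56 striatum 1 between it and the other 3 libraries, and *Top2a* did not pass (log2 change -1.80, SE 0.81, adjusted p = 0.106). *Mki67*, which encodes the Ki-67 proliferation antigen, showed the same order of libraries, with 9.65, 31.3, 1.90, 1.13 and 2.97 CPM at P56 against 28.1 to 37.3 CPM at P14 (adjusted p = 0.0908). Without P56 striatum 2, both passed (log2 change -3.21 with adjusted p = 0.00269 for *Top2a* and -3.06 with adjusted p = 0.0021 for *Mki67*), 22 of 22 cell division genes fell and so did 18 of 19 immature neuron genes. Without all 5 libraries with neighbouring tissue 17 immature neuron genes fell. The count of cell division genes that fell also moved without P14 striatum 4 (9), P56 striatum 1 (7), P56 striatum 5 (8) or P14 striatum 1 and 4 together (5). *Birc5*, survivin, and *Mcm2*, a replicative helicase subunit, were called in the full comparison, with log2 changes of -1.75 (adjusted p = 0.00471) and -0.97 (adjusted p = 0.00642).

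*Dcx*, doublecortin, the microtubule protein of migrating neurons, had 28.7, 43.8, 34.5, 30.2 and 38.3 CPM at P14 and 16.6, 35.4, 21.6, 11.2 and 13.6 CPM at P56 (log2 change -0.83, SE 0.28, adjusted p = 0.0383). P56 striatum 2 lay inside the P14 range, and the call was lost in 10 of the 20 alternatives, with adjusted p from 0.0571 to 0.0843. *Tubb2b*, a tubulin of growing neurons, fell without overlap, from 173 to 256 CPM to 62.4 to 99.8 CPM (log2 change -1.43, SE 0.13, adjusted p = 5.67e-05). *Ntn1*, the guidance cue netrin 1, and *Epha3*, an ephrin receptor, were 2 of 4 axon guidance genes that fell among 22, with log2 changes of -0.80 and -0.80. The 18 others of that list did not pass, and its median was 0.002, beside falls in 19.6% of all genes. Of that list 7 fell and 1 rose without P56 striatum 2, 3 and 4, and 11 fell and 3 rose without all 5.

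Genes of the neuronal extracellular matrix also fell, in 9 of 12 cases, with a median of -0.97 and 0 higher, beside falls in 19.6% of all genes. *Tnc*, tenascin C, a matrix glycoprotein of the developing brain, went from 35.7, 27.4, 26.0, 45.3 and 22.3 CPM in P14 striatum 1 to 5 to 5.32, 7.66, 6.29, 4.91 and 4.50 CPM in P56 striatum 1 to 5 (log2 change -2.45, SE 0.22, adjusted p = 4.44e-05). *Hapln1*, which links hyaluronan to proteoglycans, had 80.4, 89.3, 96.7, 113 and 103 CPM and 27.6, 27.2, 29.4, 33.4 and 30.1 CPM (log2 change -1.71, SE 0.10, adjusted p = 5.53e-06). Both dropped in a step with wide space between the ages. *Vcan*, versican, changed by -1.17 (adjusted p = 0.000823), and *Acan*, aggrecan, the main proteoglycan of perineuronal nets, was at 3.77 to 5.48 CPM and 2.87 to 5.14 CPM and did not pass (adjusted p = 0.125). Without P56 striatum 3, *Acan* stood at a log2 change of -0.52 with an adjusted p of 0.0177.

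**Figure D4:**
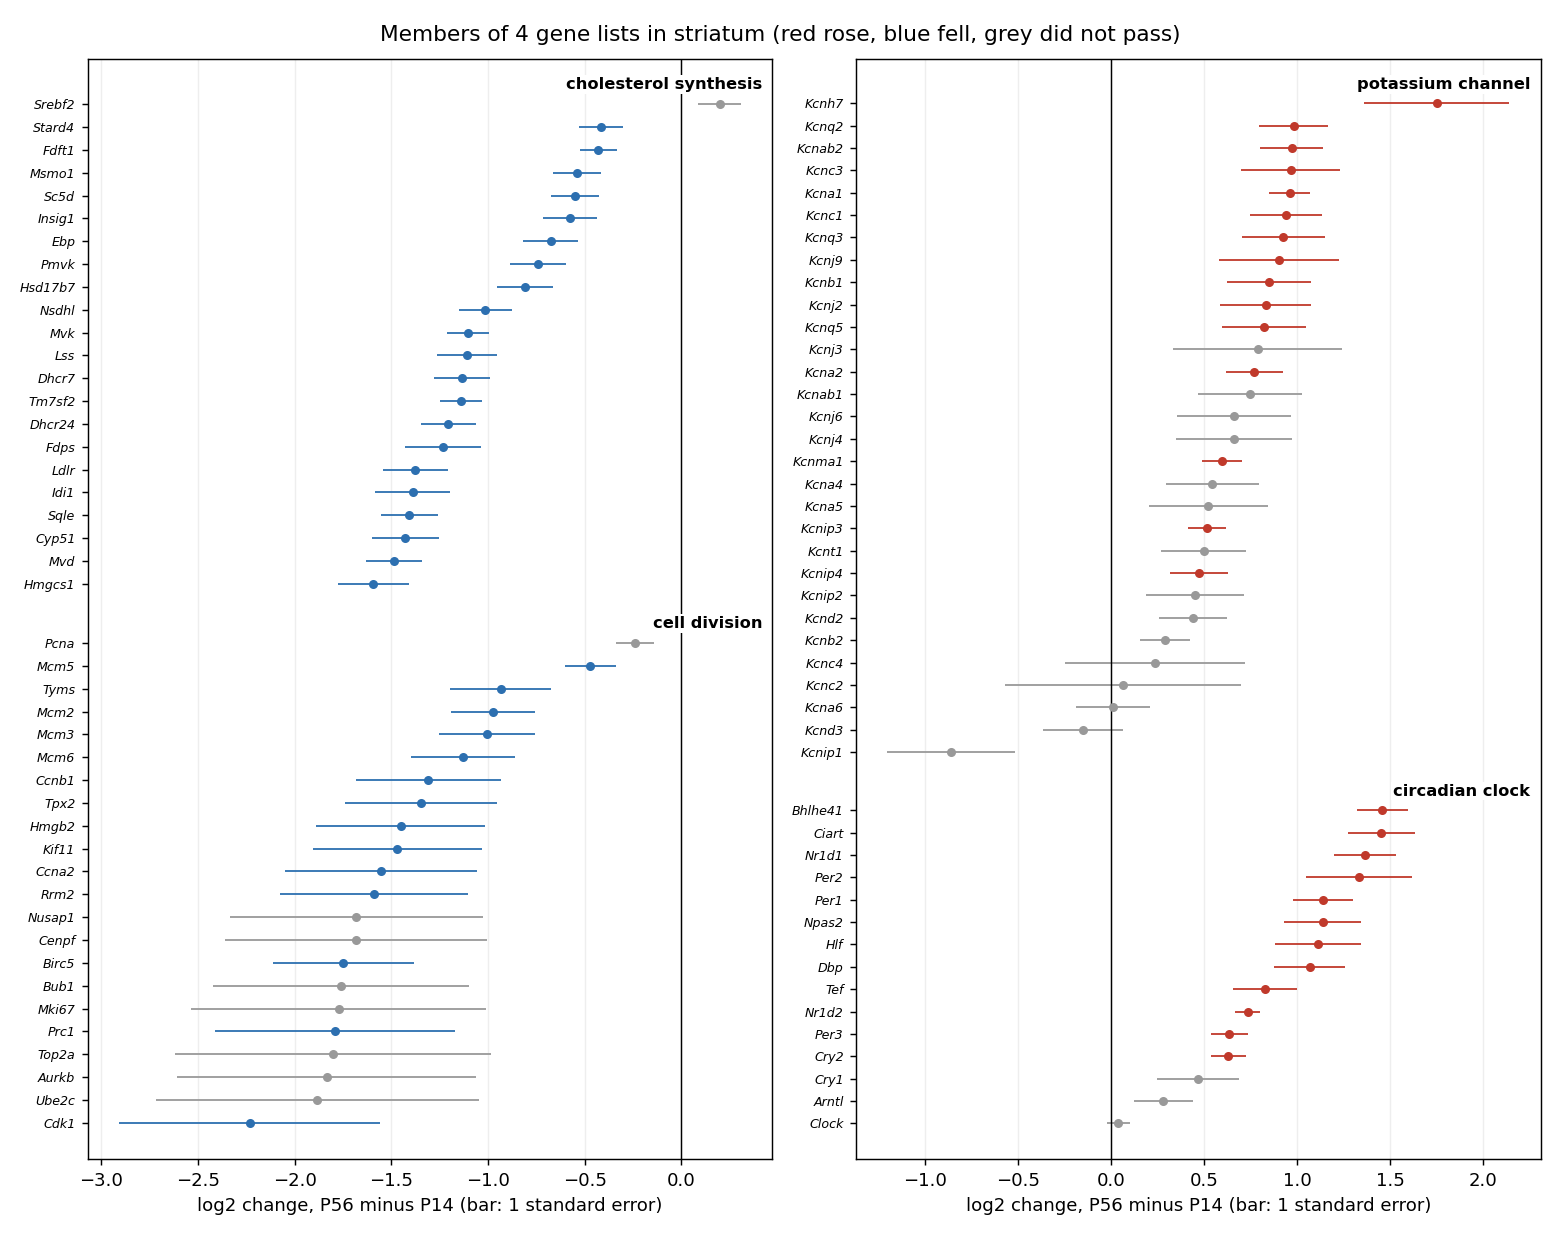
Log2 change from P14 to P56 in striatum (horizontal axes, 1 SE as bar) of tested members of the cholesterol synthesis, cell division, potassium channel and circadian clock lists, with genes that rose in red, fell in blue and did not pass in grey. Cholesterol genes reach -1.59 at *Hmgcs1*, the cell division genes have the widest errors of the 4 lists, and *Kcnip1* is the potassium channel gene furthest left of 0.

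Of 30 potassium channel genes 15 rose and 0 fell, with a median log2 change of 0.66, and of 26 sodium and calcium channel genes 11 rose and 1 fell, with a median of 0.48. Among all genes 16.0% rose and 19.6% fell. Potassium channel genes that rose and fell numbered 15 and 2 without P56 striatum 2, 3 and 4, and without all 5 libraries with neighbouring tissue 17 and 4. *Kcna1* (ENSMUSG00000047976, chr6:126636463-126645801, minus strand), a low-threshold voltage-gated potassium channel of axons, was at 97.7, 125, 129, 120.2 and 141 CPM in P14 striatum 1 to 5 and 258, 202, 268, 249 and 215 CPM in P56 striatum 1 to 5. The groups were well apart (log2 change 0.96, SE 0.11, adjusted p = 0.000197). Its auxiliary subunit *Kcnab2* ranged over 90.3 to 147 CPM and 185 to 312 CPM (log2 change 0.97, adjusted p = 0.00187). *Kcnj2*, an inward rectifier that holds medium spiny neurons near rest, had 36.1 to 87.7 CPM and 76.0 to 151 CPM, with overlap (log2 change 0.83, adjusted p = 0.0234), a call that 6 of the 20 alternatives lost, with adjusted p from 0.0507 to 0.0626.

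*Scn1a*, which encodes a voltage-gated sodium channel that fast-spiking neurons rely on, stood at 206, 107, 132, 149.9 and 127 CPM at P14 and 224, 194, 382, 332 and 238 CPM at P56. P14 striatum 1 reached into the P56 range, and the log2 change was 0.92 (SE 0.22, adjusted p = 0.00874). *Scn2b*, a sodium channel beta subunit, rose without overlap (193 to 297 to 370.0 to 508 CPM, log2 change 0.79, adjusted p = 0.00136), as did *Cacnb2*, a calcium channel beta subunit (log2 change 0.85, adjusted p = 0.0016). *Scn3a*, a sodium channel of the young brain, was at 161 to 204 CPM and 153 to 269 CPM and did not pass (adjusted p = 0.305). *Cacng5*, the member that fell, had 43.9, 13.0, 47.8, 8.14 and 23.6 CPM at P14 and 6.31, 20.2, 6.02, 5.80 and 5.78 CPM at P56 (adjusted p = 0.0381), a call that 11 of the 20 alternatives lost, with adjusted p from 0.0526 to 0.149. Without P14 striatum 1 and 4, 10 potassium and 6 sodium and calcium channel genes rose.

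Of 22 synaptic vesicle genes 11 rose and 0 fell, with a median log2 change of 0.46, beside 16.0% and 19.6% of all genes. *Snap25*, a SNARE protein of vesicle fusion, went from 585, 704, 653, 606 and 614 CPM in P14 striatum 1 to 5 to 1163, 1214, 1884, 1779 and 1277 CPM in P56 striatum 1 to 5 (log2 change 1.21, SE 0.15, adjusted p = 0.000282). P56 striatum 3 and 4, which hold cortical excitatory genes, were the highest, and the lowest P56 library was still above every P14 library. *Rims1*, a scaffold of the active zone, rose from 102 to 118 CPM to 184 to 301 CPM (log2 change 1.01, adjusted p = 0.000404). *Syp*, synaptophysin, was at 571, 437, 514, 407 and 417 CPM and 298, 516, 525, 489 and 294 CPM and did not pass (log2 change -0.15, adjusted p = 0.572), and without P56 striatum 2, 3 and 4 it was lower at P56 (log2 change -0.66, adjusted p = 0.0169). In that comparison 7 vesicle genes rose and 2 fell.

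Of 25 glutamate receptor genes 6 rose and 0 fell (median 0.29), and of 16 GABA receptor genes 5 rose and 2 fell (median 0.31), beside 16.0% and 19.6% of all genes. *Grin2a*, the NMDA receptor subunit of mature synapses, stood at 81.4, 157, 148, 149 and 187 CPM at P14 and 255, 197, 435, 359.6 and 231 CPM at P56 (log2 change 1.03, SE 0.25, adjusted p = 0.0106), with P56 striatum 3 and 4 highest. *Grin2b*, the subunit that prevails early in development, was at 260.2 to 714 CPM and 526 to 805 CPM and did not pass (log2 change 0.46, adjusted p = 0.127). Without P56 striatum 2, 3 and 4, *Grin2a* missed the threshold (log2 change 0.75, adjusted p = 0.0574).

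*Gria3*, an AMPA receptor subunit, rose by 0.58 on the log2 scale (adjusted p = 0.00829). *Gabra2*, an alpha subunit of GABA-A receptors, rose from 43.1 to 58.1 CPM to 64.1 to 83.6 CPM (log2 change 0.56, adjusted p = 0.00233), whereas *Gabra5*, an extrasynaptic alpha subunit, fell from 56.6 to 82.5 CPM to 27.7 to 39.9 CPM (log2 change -0.93, adjusted p = 0.000596). The number of glutamate receptor genes that rose was 3 without P14 striatum 1 and 4, P56 striatum 1, P56 striatum 4 or P56 striatum 5. That of GABA receptor genes was 3 without P14 striatum 2, P14 striatum 3 or P14 striatum 5. Without P56 striatum 2, 3 glutamate and 4 GABA receptor genes fell.

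Of 17 postsynaptic density genes 4 rose and 0 fell, with a median of 0.40, beside 16.0% and 19.6% of all genes. *Camk2a*, the kinase of synaptic plasticity, had 199, 482, 367, 326 and 431 CPM at P14 and 606, 574, 818, 766 and 579.9 CPM at P56 (log2 change 0.89, SE 0.21, adjusted p = 0.00962), and it did not pass without P56 striatum 2, 3 and 4 (adjusted p = 0.0866). *Dlg4*, the PSD-95 scaffold, was at 88.0 to 219 CPM and 160.0 to 239 CPM and did not pass (adjusted p = 0.261). The count of this list was 1 or 2 without any 1 of P14 striatum 1, 3, 4 and 5 and P56 striatum 1, 3, 4 and 5, and 0 without P56 striatum 2, 3 and 4.

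Among identity genes of striatal neurons, of the 20 shared medium spiny neuron genes 3 rose, of 9 direct pathway genes 1 rose and of 6 indirect pathway genes 0 rose, and none of these fell, beside 16.0% and 19.6% of all genes. The count of 3 shared genes was 1 without P56 striatum 1, P56 striatum 4, P56 striatum 5 or P14 striatum 1 and 4, and 5 without P56 striatum 2. The medians were 0.44, 0.12 and 0.57. *Drd1* stood at 165, 479, 344, 419 and 403 CPM in P14 striatum 1 to 5 and 707, 341, 358, 663 and 709 CPM in P56 striatum 1 to 5 (log2 change 0.62, SE 0.30, adjusted p = 0.131). P14 striatum 1 and P56 striatum 2 and 3 were the low libraries of their groups. The same libraries were low for *Drd2*, with 25.4, 80.4, 65.2, 70.9 and 75.03 CPM and 137, 61.8, 80.9, 126 and 136 CPM (log2 change 0.77, SE 0.31, adjusted p = 0.0743).

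*Ppp1r1b*, the dopamine-regulated phosphatase inhibitor DARPP-32, was at 327, 1092, 820.0, 905 and 1007 CPM and 1245, 511, 821, 1098 and 1144 CPM (adjusted p = 0.619), and *Adora2a*, the adenosine receptor of the indirect pathway, at 95 to 299 CPM and 140.1 to 365 CPM (adjusted p = 0.615). *Tac1*, the substance P precursor of direct pathway neurons, rose (log2 change 0.93, SE 0.28, adjusted p = 0.026), as did *Ptpn5*, the striatal-enriched phosphatase STEP (log2 change 0.88, adjusted p = 0.0242), and *Gad1*, a GABA-synthesizing enzyme (log2 change 0.49, adjusted p = 0.00755). Neither *Tac1* nor *Ptpn5* passed without P14 striatum 1 and 4 (adjusted p = 0.0749 and 0.0753). The call of *Tac1* was lost in 7 of the 20 alternatives and that of *Ptpn5* in 5, P56 striatum 1, 4 or 5 left out among them. With the 5 libraries that hold neighbouring tissue left out, 15 of the 20 shared genes, 2 of the 9 direct pathway and 5 of the 6 indirect pathway genes rose. In that comparison of 3 P14 with 2 P56 libraries *Drd1* was at 0.80 (adjusted p = 0.0056) and *Drd2* at 0.90 (adjusted p = 0.00125).

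Among interneuron genes, *Slc5a7*, the choline transporter of cholinergic interneurons, rose from 23.9 to 37.0 CPM to 35.5 to 75.7 CPM (log2 change 0.75, adjusted p = 0.0185, 0.0626 without P14 striatum 1 and 4), and *Chat*, their transmitter-synthesizing enzyme, did not pass (log2 change 0.73, adjusted p = 0.0723). *Sst*, somatostatin, was at 48.2 to 69.2 CPM and 53.5 to 69.2 CPM (log2 change 0.13, SE 0.10). *Pvalb*, parvalbumin of fast-spiking interneurons, had 53.1, 3.17, 5.79, 18.8 and 5.08 CPM at P14 and 7.82, 10.7, 35.9, 21.6 and 8.50 CPM at P56. P14 striatum 1 and 4 were the high P14 libraries, and the log2 change of -0.03 in the full comparison became 1.86 (adjusted p = 0.0432) without them, 0.81 (adjusted p = 0.0396) without all 5 and -1.07 (adjusted p = 0.464) without P56 striatum 2, 3 and 4. *Calb2*, calretinin, was the 1 GABAergic interneuron gene of 11 that was called, at 209, 6.98, 95.1, 19.3 and 18.7 CPM and 3.08, 13.3, 3.43, 2.96 and 2.01 CPM (log2 change -3.81, SE 0.96, adjusted p = 0.0118). Its P14 values followed the thalamus genes, which were highest in P14 striatum 1 and 3, and its call was lost in 3 of the 20 alternatives (adjusted p from 0.0502 to 0.0642). Without P14 striatum 1 and 4, 3 genes of that list fell. The neuropeptide gene *Nts*, neurotensin, fell from 21.7 to 34.9 CPM to 3.58 to 17.8 CPM (log2 change -1.77, adjusted p = 0.00535), and *Penk*, the enkephalin precursor, did not pass (log2 change 0.61, adjusted p = 0.139). Of 16 neuropeptide genes 1 rose and 2 fell (median 0.13). These counts were 0 and 2 without P14 striatum 1 and 4 (median -0.03). They were 2 and 6 without P56 striatum 2, 3 and 4 (median -1.89) and 2 and 9 without all 5 (median -2.04). Of the 6 striosome and matrix genes *Nr4a1* and *Calb1* rose (log2 changes 1.07 and 0.70). The shares of all genes called in the full comparison were 16.0% higher and 19.6% lower. The call of *Calb1* was lost in 11 of the 20 alternatives (adjusted p from 0.0554 to 0.159), and that of *Nr4a1* without P56 striatum 2, 3 and 4 (0.126) and without all 5 (0.078).

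Of 33 receptors for neuromodulators 4 rose and 3 fell, beside 16.0% and 19.6% of all genes. The rises numbered 7 without P14 striatum 2, 2 without P14 striatum 3, P14 striatum 4, P56 striatum 4 or P56 striatum 2, 3 and 4, and 1 without P14 striatum 1 and 4. The falls numbered 7 without P56 striatum 2, 3 and 4, 9 without all 5, and 0 or 1 without any 1 library other than P56 striatum 2. *Htr2a*, a serotonin receptor, had 12.8 to 21.4 CPM at P14 and 22.0 to 36.6 CPM at P56 (log2 change 0.95, adjusted p = 0.00294, 0.0604 without all 5). *Cnr1*, the cannabinoid receptor of medium spiny neuron terminals, was at 223, 332, 543, 539 and 603 CPM and 654, 366, 840.2, 925 and 862 CPM and did not pass (log2 change 0.70, adjusted p = 0.0934).

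Immediate early genes, which neurons switch on within minutes of activity, were higher at P56 in 11 of 14 cases, with 0 lower and a median log2 change of 1.09. Among all genes 16.0% rose. *Fosb*, an AP-1 transcription factor, was at 0.419, 1.41, 0.981, 1.05 and 1.26 CPM in P14 striatum 1 to 5 and 5.00, 7.46, 2.72, 4.30 and 4.81 CPM in P56 striatum 1 to 5 (log2 change 2.25, SE 0.34, adjusted p = 0.000853). *Npas4*, a factor induced by calcium influx, had 7.74, 14.9, 8.13, 12.7 and 6.99 CPM and 37.6, 75.4, 23.9, 21.1 and 63.2 CPM (log2 change 2.13, SE 0.38, adjusted p = 0.00217). For both genes the lowest P56 library stood above the highest P14 library. *Dusp1*, a MAP kinase phosphatase, spread over 10.5 to 12.2 CPM and 18.02 to 31.6 CPM (log2 change 1.24, adjusted p = 0.000156). *Fos* had 12.3, 10.6, 10.2, 11.6 and 12.3 CPM and 10.3, 52.5, 21.8, 22.3 and 24.6 CPM (log2 change 1.21, adjusted p = 0.018), with P56 striatum 1 inside the P14 range and P56 striatum 2 far above the rest. *Arc*, an activity-regulated synaptic protein, changed by 1.08 (adjusted p = 0.00746). Without P56 striatum 2, 3 and 4, 7 of the 14 rose and 1 fell, and neither *Fos* (adjusted p = 0.12) nor *Arc* (adjusted p = 0.105) passed.

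**Figure D5:**
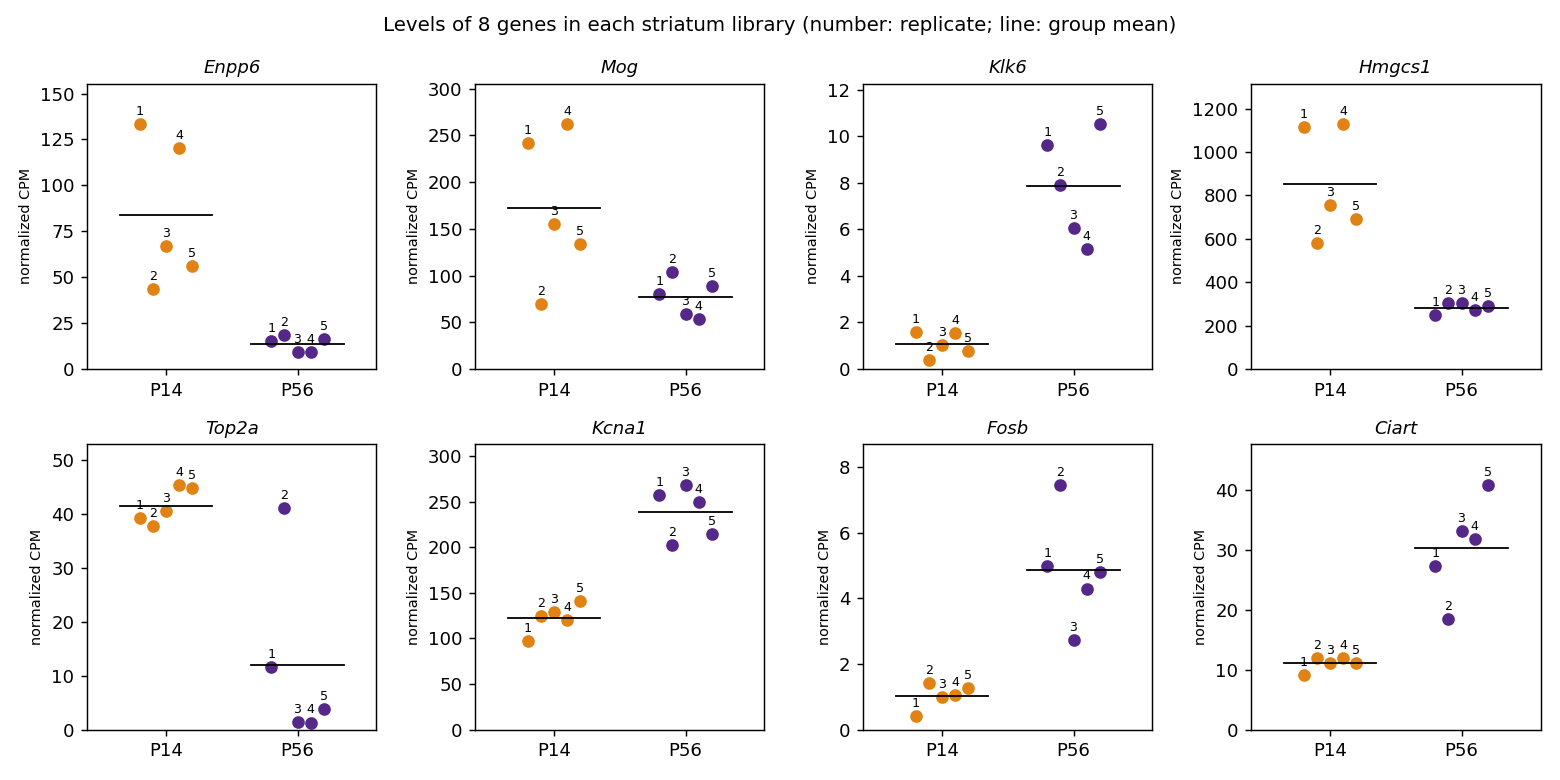
Normalized CPM (vertical axes, from 0) of 8 genes in each striatum library, with P14 in orange, P56 in purple, replicate numbers above the points and the group mean as a line. *Enpp6*, *Hmgcs1*, *Klk6*, *Kcna1*, *Fosb* and *Ciart* show no overlap of the ages, *Mog* overlaps at P14 library 2, and *Top2a* at P56 library 2.

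Genes of the circadian clock were higher at P56 in 12 of 15 cases, with 0 lower and a median log2 change of 1.07, and 11 had groups that did not overlap. Among all genes 16.0% rose and 23.6% had groups that did not overlap. The count of clock genes that rose was 12 in each alternative that left out a set of libraries and with total counts. The clock is a transcriptional loop in which CLOCK and ARNTL switch on the Per and Cry genes, whose products then repress them. The study's methods place the removal of all brains in the afternoon, and the hour of each mouse was not used here.

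Among the repressors, *Per2* was at 12.4, 26.6, 23.3, 16.8 and 26.4 CPM in P14 striatum 1 to 5 and 76.1, 48.1, 32.5, 71.5 and 37.1 CPM in P56 striatum 1 to 5 (log2 change 1.33, SE 0.28, adjusted p = 0.00532), and *Per1* at 16.7, 33.8, 26.1, 26.7 and 28.7 CPM and 55.7, 53.0, 53.3, 58.5 and 70.0 CPM (log2 change 1.14, SE 0.16, adjusted p = 0.000622). P14 striatum 1 was the low library of its group for both, and neither gene's groups overlapped. *Cry1* had 22.4 to 35.8 CPM and 26.1 to 59.2 CPM and did not pass (adjusted p = 0.116). *Ciart*, a repressor of the CLOCK complex, went from 9.14, 11.9, 11.1, 12.02 and 11.2 CPM to 27.3, 18.5, 33.1, 31.8 and 40.8 CPM (log2 change 1.45, SE 0.18, adjusted p = 0.000284), and *Bhlhe41*, another repressor, from 14.6, 15.7, 15.5, 14.0 and 16.5 CPM to 53.0, 32.0, 35.0, 40.7 and 48.8 CPM (log2 change 1.46, SE 0.14, adjusted p = 5.88e-05). The P14 libraries of both genes lay close together. Of the output factors, *Dbp* spread over 44.2 to 80.7 CPM and 92.7 to 169.9 CPM (log2 change 1.07) and *Tef* over 219 to 425 and 489 to 722 CPM (log2 change 0.83). *Nr1d2*, a nuclear receptor that represses *Arntl*, had narrow groups, with 119 to 128 CPM and 186 to 226 CPM (log2 change 0.74, SE 0.07, adjusted p = 5.48e-05). *Arntl* and Clock, the activators, did not pass.

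The CLOCK complex binds the E-box CACGTG. RefSeq promoters of 14 clock genes were searched on both strands for these 6 letters, which read the same on either strand, and 5 genes held them (35.7%), against 8.09% of 27025 genes. One window of 66 bases is shown for each, with the E-box in capitals, because these genes differ in their change, *Cry1* being the 1 that did not pass. They lie at chr11:69098753-69098818, plus strand (*Per1*), chr15:81802516-81802581, plus strand (*Tef*), chr10:85185079-85185144, minus strand (*Cry1*), chr3:95882309-95882374, minus strand (*Ciart*) and chr6:145865538-145865603, minus strand (*Bhlhe41*) of GRCm38.p6. *Ciart* holds 3 such matches in its promoter. *Per1*, *Cry1*, *Tef* and *Ciart*, like *Hmgcs1* above, were added after their values were seen.
Per1: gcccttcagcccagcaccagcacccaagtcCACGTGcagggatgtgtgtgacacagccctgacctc
Tef: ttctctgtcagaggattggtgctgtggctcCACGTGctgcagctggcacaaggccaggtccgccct
Cry1: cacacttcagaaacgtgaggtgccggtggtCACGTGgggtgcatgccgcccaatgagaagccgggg
Ciart: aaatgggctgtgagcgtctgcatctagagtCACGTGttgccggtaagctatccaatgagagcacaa
Bhlhe41: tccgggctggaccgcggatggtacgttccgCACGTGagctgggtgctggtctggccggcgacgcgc

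Among the other glia and vessels, 6 of 20 astrocyte genes fell and 2 rose (median -0.37), and 3 of 18 microglia genes fell and 2 rose (median -0.04). Of 20 endothelial and mural cell genes 10 fell and 1 rose (median -0.62). Among all genes 19.6% fell and 16.0% rose. *Aqp4*, the astrocyte water channel, was at 467, 182, 228, 296 and 173 CPM at P14 and 119, 153, 137, 138 and 129 CPM at P56, with P14 striatum 1 highest (log2 change -0.99, SE 0.25, adjusted p = 0.0112). The change of *Aqp4* was -0.52 without P14 striatum 1 and 4, and it did not pass without P56 striatum 2, 3 and 4 (adjusted p = 0.0633). *Gja1*, connexin 43, and *Slc1a3*, a glutamate transporter, fell by 0.79 and 0.57 on the log2 scale, while *Glul*, glutamine synthetase, rose from 918 to 1223 CPM to 1340.4 to 1669 CPM (log2 change 0.47, adjusted p = 0.006, 0.0607 without P56 striatum 2, 3 and 4). *Gfap*, the astrocyte filament, had 67.8 to 187 CPM and 22.9 to 135 CPM and did not pass, and without P56 striatum 2 its log2 change was -1.24 (adjusted p = 0.0261). Without all 5 libraries with neighbouring tissue 10 astrocyte genes fell, and 3 endothelial and mural cell genes rose.

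In microglia, *P2ry12*, a purinergic receptor of resting cells, fell (log2 change -0.54, adjusted p = 0.00442), *Ctss*, a lysosomal protease, rose (log2 change 0.60, adjusted p = 0.00427), and *Cx3cr1*, the fractalkine receptor, did not pass (log2 change -0.26, adjusted p = 0.11). The fall of *P2ry12* did not pass without P56 striatum 2, 3 and 4 (adjusted p = 0.0536). Of the 3 microglia falls 1 was left without P14 striatum 5, P56 striatum 5 or P14 striatum 1 and 4. In vessels, *Kdr*, the VEGF receptor of growing endothelium, went from 53.1, 59.4, 61.0, 55.2 and 69.5 CPM to 14.5, 13.0, 19.6, 11.1 and 11.5 CPM (log2 change -2.10, SE 0.16, adjusted p = 2.01e-05). *Mfsd2a*, a lipid transporter of the blood-brain barrier, had the narrowest groups of these, with 51.4, 50.3, 50.9, 57.3 and 50.8 CPM at P14 and 19.2, 18.7, 16.8, 17.6 and 16.9 CPM at P56 (log2 change -1.55, SE 0.07, adjusted p = 2.31e-06). *Cldn5*, a tight junction protein, changed by -1.21 (adjusted p = 0.00195), and *Ly6c1* was the member that rose (log2 change 0.38), a call lost without P14 striatum 1 and 4 (adjusted p = 0.0527) and without P56 striatum 2, 3 and 4 (0.0569). The haemoglobin genes, listed as red blood cell genes, fell in 5 of 5 cases, with *Hbb-bs* at 103 to 187 CPM and 35.9 to 51.3 CPM (log2 change -1.70, adjusted p = 8.07e-05). The source of their reads was not tested. Of 9 meningeal fibroblast genes 3 fell, among them *Col3a1*, a fibrillar collagen, at 63.8, 54.7, 31.9, 41.0 and 57.7 CPM and 3.54, 5.51, 20.2, 5.82 and 2.71 CPM, and 1 fell without P14 striatum 1 and 4 and 5 without P56 striatum 2, 3 and 4.

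Of 12 genes of DNA methylation 3 rose and 3 fell, beside 16.0% and 19.6% of all genes. *Dnmt3a*, which sets new methyl marks in neurons, went from 226, 356, 316, 327 and 399 CPM to 123, 99.9, 118, 94.7 and 132 CPM (log2 change -1.52, SE 0.15, adjusted p = 7.85e-05), and *Tet1*, which oxidizes such marks, from 85.0 to 99.8 CPM to 31.8 to 41.6 CPM (log2 change -1.38, SE 0.08, adjusted p = 7.08e-06). *Mbd2*, a reader of methylated DNA, rose (log2 change 0.67, adjusted p = 0.000734), and *Dnmt1*, the maintenance enzyme, was just outside the threshold (log2 change -0.21, adjusted p = 0.0504). Without P56 striatum 2, 5 genes of this list fell. Of 13 imprinted genes 5 fell and 0 rose, among them *Ndn*, necdin (log2 change -0.82, adjusted p = 0.00421), and *Igf2*, a growth factor that meninges and choroid plexus express, which had 79.9, 45.9, 26.7, 71.2 and 47.8 CPM at P14 and 8.25, 10.8, 37.8, 13.2 and 7.53 CPM at P56. Its fall did not pass without P14 striatum 1 and 4 (log2 change -1.37, adjusted p = 0.0886).

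Of 20 nuclear genes of the respiratory chain 8 fell and 1 rose, with a median of -0.19, with 18 lower by total counts and 5 lower without P14 striatum 1 and 4. *Cox5a*, a subunit of complex IV, ranged over 135 to 156 CPM and 102 to 124 CPM (log2 change -0.40, adjusted p = 0.00202). *Sdha*, of complex II, was called higher (log2 change 0.25, adjusted p = 0.0302), a call that 13 of the 20 alternatives lost, with adjusted p from 0.0525 to 0.163. Genes of the mitochondrial chromosome took 6.45% to 8.22% of the reads at P14 and 8.40% to 11.3% at P56, and 12 of 17 were called higher, with 0 lower. Of 10 complement and MHC class I genes, *B2m* was higher (log2 change 0.43, adjusted p = 0.0145) and *Tap1* lower (log2 change -0.71, adjusted p = 0.00968). The shares of all genes were 16.0% higher and 19.6% lower. *B2m* did not pass without P56 striatum 2, 3 and 4 (adjusted p = 0.21), nor did *Tap1* without P14 striatum 1 and 4 (adjusted p = 0.0555).

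The study followed 100 ASD-related genes. The deposited gene table holds 99 of them and 94 were tested, of which 24 rose and 14 fell, beside 16.0% and 19.6% of all genes. With total counts 19 rose and 20 fell. *Rpe65*, a retinoid isomerase, had the largest rise of them, from 0.218, 0.223, 0.279, 0.368 and 0.504 CPM to 5.13, 2.40, 3.02, 5.61 and 4.97 CPM (log2 change 3.72, SE 0.33, adjusted p = 4.82e-05), at a low level throughout. *Pomt1*, a mannosyltransferase, fell from 18.8 to 21.9 CPM to 13.3 to 14.7 CPM (log2 change -0.49, adjusted p = 0.000404).

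*Cntnap2*, a cell adhesion molecule of axons, was at 173, 177, 150.0, 166 and 164 CPM in P14 striatum 1 to 5 and 255, 173, 189, 252 and 238 CPM in P56 striatum 1 to 5 (log2 change 0.42, SE 0.11, adjusted p = 0.0172). P56 striatum 2 lay within the P14 range, and without P14 striatum 1 and 4 the adjusted p was 0.0551. *Ube3a*, a ubiquitin ligase, had 181 to 206 CPM and 197 to 221 CPM, and its log2 change of 0.09 (SE 0.06) did not pass (adjusted p = 0.262). *Fgfr2*, a growth factor receptor, stood at 0.03 (SE 0.16) and *Foxp1*, a transcription factor of medium spiny neurons, at 0.42 (SE 0.29), and neither passed. *Mef2c*, an activity-dependent transcription factor, and *Prss12*, the protease neurotrypsin, were high where cortical excitatory genes were high. *Mef2c* had 185, 316, 233, 299 and 294 CPM and 206, 329, 669.9, 452 and 220.3 CPM (adjusted p = 0.223) and *Prss12* 1.39, 7.88, 1.5, 1.17 and 1.12 CPM and 2.03, 14.5, 8.93, 4.63 and 2.16 CPM (adjusted p = 0.172). The log2 change of *Mef2c* without P56 striatum 2, 3 and 4 went from 0.50 to -0.31 and that of *Prss12* from 1.31 to -0.30, and without all 5 they were -0.40 and -0.73. None of these 4 values passed, while without P14 striatum 2 *Prss12* was at 2.33 (adjusted p = 0.0151).

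The split of the calls differed between gene classes. Of 1044 genes of the annotation class TEC, which awaits experimental proof, 247 were called higher and 16 lower, of 292 small nucleolar RNA genes 42 and 4, of 270 miRNA genes 41 and 11 and of 119 small nuclear RNA genes 31 and 7, whereas 2505 of 15852 protein-coding genes were higher and 3585 lower. Protein-coding genes took 89.8% to 91.5% of the reads at P14 and 86.6% to 90.1% at P56. The protein-coding genes that rose spanned a median of 41.7 kb, those that fell 20.1 kb and those not called 22.7 kb, and 23.9%, 11.2% and 13.6% of them spanned more than 100 kb. These are counts of reads on annotated genes, in which a read from a host gene's intron can fall on a small RNA gene inside it.

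The change from P14 to P56 differed between striatum and mPFC for 871 of 19617 genes (4.44%) in a fit of 20 libraries with an interaction of age and region. With the mouse as a block it differed for 299, without P14 striatum 1 and 4 for 334 and without P56 striatum 2, 3 and 4 for 2140. Leaving out 1 library moved the count to 1492 (P14 striatum 2), 542 (P14 striatum 3), 525 (P14 striatum 4), 523 (P56 striatum 1), 2281 (P56 striatum 2) and 420 (P56 striatum 4). *Tac1* was higher at P56 in striatum (log2 change 0.93) and lower in mPFC (-0.93), a difference of 1.89 (SE 0.32, adjusted p = 0.0035, 0.0284 with the mouse block). *Slc5a7* differed by 1.20 (adjusted p = 0.0132, 0.0405 with the block) and *Cacnb2* by 0.83 (adjusted p = 0.00674, 0.034 with the block). In mPFC their changes were -0.42 and 0.05, against 0.75 and 0.85 in striatum. *Rims1* rose by 1.01 on the log2 scale in striatum and by 0.41 in mPFC (adjusted p of the difference = 0.0369, 0.0403 with the block).

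In the oligodendrocyte lists the differences from mPFC were called without the mouse block and not with it. *Pdgfra* changed by -1.40 and -0.68 (adjusted p of the difference = 0.00975, 0.0565 with the mouse block) and *Gpr17* by -2.64 and -1.66 (0.046 and 0.0733). In all, 5 of the 13 newly formed oligodendrocyte genes and 3 of the 11 precursor genes differed between the regions, and 0 of both with the block. Among all genes 871 of 19617 differed (4.44%), and 299 with the block. Of the 24 myelin genes 0 differed in either fit. *Tubb2b* fell more in mPFC (-2.04 against -1.43 in striatum, adjusted p of the difference = 0.0319, 0.0947 with the block). Of the 24 cholesterol genes 4 differed (2 with the block), of the 15 clock genes 1 (0 with the block) and of the 14 immediate early genes 0 (1 with the block). For *Hmgcs1* the changes were -1.59 and -0.92 (SE of the difference 0.21, adjusted p = 0.0828), and for *Klk6* 2.88 and 3.35 (SE of the difference 0.70, adjusted p = 0.776).

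The study also assembled contigs from reads on the strand opposite to genes (antisense contigs), and 32296 of them were tested. With edgeR's quasi-likelihood test 5947 rose (18.4%) and 4663 fell (14.4%), scaled by the gene table's library sizes. Scaled by TMM factors of the contigs themselves, 4840 rose and 5634 fell, so which direction held more calls turned with the scaling. Their direction followed that of their host gene. Of the 5947 that rose, 4898 lay on genes that rose and 3 on genes that fell, and of the 4663 that fell, 4066 lay on genes that fell and 14 on genes that rose. Contig reads made up 53.6% to 56.2% as many reads as gene reads in each library, and in 12729 contigs that lie wholly in exons of their host, the reads per base were a median of 1.64 times those of the host gene. In 1422 contigs outside exons this ratio was 0.339. From the deposited counts, contig reads in exons therefore cannot be told apart from reads of the gene's own strand, and the contig values below are given as counts on these positions.

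The largest falls included contigs on *Casr* (chr16:36494783-36495008, GRCm38, wholly in exons, with 1.97 ± 0.808 CPM at P14 and 0.0413 ± 0.0317 CPM at P56, SD, n = 5, log2 change -5.54), *Wdr86* (log2 change -4.06), *Alox5* (-3.72) and *Agt* (-3.54). A contig at chr14:84458590-84460931, whose host is not named in the annotation, went from 52.4 ± 23.0 CPM to 4.36 ± 1.39 CPM (log2 change -3.59, SE 0.33, adjusted p = 3.53e-05). These contigs that fell were all highest in P14 striatum 1 and 4, the choroid plexus libraries. That on *Wdr86* was at 4.99, 1.41, 0.884, 4.97 and 1.11 CPM in P14 striatum 1 to 5 and 0.109 to 0.270 CPM at P56. That on *Agt* was at 22.0, 1.01, 4.33, 9.44 and 1.33 CPM and 0.427 to 0.886 CPM. The part of that tissue in these falls was not tested. Contigs on *Igfbp6* (3.10), *Tmprss6* (2.94), *Ddit4l* (2.49) and *Hsf4* (2.35) had the largest rises beside 1 at chr8:84974435-84976398 with no named host (3.34). The host genes *Casr*, *Igfbp6* and *Ddit4l* changed by -5.26, 3.15 and 2.34, close to their contigs.

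On *Fgfr2*, 4 contigs outside its exons were called higher while the gene itself was not. Their reads per base were 3.51, 4.94, 1.98 and 4.07 times those of the gene, against the median of 0.339 for contigs outside exons. Whether these 4 contigs overlap exons of other genes was not tested. The contig at chr7:130507528-130516169 had 22.1 ± 2.15 CPM at P14 and 29.5 ± 3.14 CPM at P56 (SD, n = 5, log2 change 0.42, SE 0.09, adjusted p = 0.00683), and the other 3 changed by 0.25, 0.31 and 0.38. On *Dcx* 1 contig fell (-0.88), and on *Scn1a* and *Cntnap2* 5 contigs each rose, with 87.3% to 100% of their bases in exons.

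The ratio of contig to gene reads, tested with limma on log2((contig + 0.5)/(gene + 0.5)), changed for 1415 of 29922 pairs (4.73%), of which 748 rose and 667 fell. The rises numbered 490 without P56 striatum 5, and rises and falls 446 and 423 without P56 striatum 2, 3 and 4. The ratio fell on *Gm16432* (log2 change of the ratio -1.59, SE 0.16), *Gas7* (-1.38) and 3 contigs of *Pcdhgb7* (-1.83, -1.82 and -1.77), and rose on *Apool* (1.81), *Hist1h2be* (1.71, SE 0.14, adjusted p = 8.14e-06), *Elk3* (1.41), *Ppib* (1.38) and *Vamp3* (1.34). On *Vamp3* and *Ppib* the contig rose by 0.63 and 0.58 while the gene changed by -0.75 and -0.79. Of these 10 contigs, 7 lie wholly outside the exons of their host. Among these 7, the reads per base were 2.96, 3.22 and 3.22 times those of the host on *Pcdhgb7*, 1.61 times on *Gm16432* and 4.12 times on *Apool*. On *Ppib* and *Elk3* they were 0.168 and 0.429 times those of the host. Overlap with exons of other genes was not tested.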

How the data were processed

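RNA was measured in striatum of 5 P14 and 5 P56 mice, with mPFC of the same ages for 1 comparison. The authors aligned reads to GRCm38 with STAR after FastQC and deposited raw read counts per Ensembl gene and per assembled contig. The deposited counts were used as they are, and no value column was left unmapped. The counts of each sample were taken by its label, and the striatum samples of an age were treated as replicates, since each came from its own mouse. In the mPFC comparison each mouse gave 1 mPFC and 1 striatum library. The main fit of those 20 libraries held no mouse term and treated them as independent, and the fit with the mouse as a block is given beside it.

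Low genes were left out by requiring 10 reads in 3 or more of the 10 libraries, and the others were scaled by TMM and tested with edgeR's quasi-likelihood test, unpaired, with Benjamini-Hochberg adjustment and a threshold of 0.05. SE is the log2 change divided by the root of F. Contigs were tested in the same way with the gene table's library sizes, and contig to gene ratios with limma after adding 0.5 reads. The change in striatum was set against that in mPFC by an interaction of age and region in edgeR. Each test was tested on simulated data, and the outcome is not given here. Depth was 77778136 to 111493718 reads on genes, and 17680 to 18878 genes held at least 10 reads.

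Named genes were, in each direction, the 12 largest changes at a mean of at least 5 CPM without overlap, the first 2 members and the 2 called members with the smallest p of each list, genes that the study discusses for age, and the 5 largest contigs and ratios. Genes beyond these that complete a count or a figure were added after their values were seen. The members and lists were chosen with earlier results of these data known. Alternatives were DESeq2, its size factors, total counts, other filters, a replicate block, sex as a term and libraries left out. Replicate numbers of the ages come from different mice and do not pair them. A few members of the lists are counted but not reported here by name.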

Additional observations from a re-analysis of the deposited data

Results flagged for a closer look

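One library stood far from the other 4 of its age for 31 combinations of a described gene and an age, by Dixon's criterion on CPM at the 95% level. Chance alone meets this criterion in about 1 in 20 groups. Many combinations were looked at, so part of the 31 can be expected from that rate. P56 striatum 2 was the library in 13 of the 31. It was the high library of its group for cell division genes, at 31.3 CPM for *Mki67*, 41.3 CPM for *Top2a*, 1.87 CPM for *Birc5* and 8.82 CPM for *Mcm2*. It was also high for *C1ql1* (4.42 CPM), *Marcksl1* (53.8 CPM), *Igsf1* (9.95 CPM), *Col9a3* (18.2 CPM), *AW551984* (12.6 CPM), *Cacng5* (20.2 CPM), *Gabrq* (2.15 CPM), *Calb2* (13.3 CPM) and *Gja1* (195 CPM). 

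P56 striatum 3 stood apart for *Aplnr* (0.905 CPM), *Ppic* (2.68 CPM), *Eln* (10.2 CPM), *Acan* (5.14 CPM), *Col3a1* (20.2 CPM) and *Igf2* (37.8 CPM). At P14, library 1 stood apart for *Ptpn5* (161 CPM), *Drd2* (25.4 CPM), *Adora2a* (95 CPM), *Chat* (7.49 CPM) and *Lhx9* (25.1 CPM), library 2 for *Gabra5* (82.5 CPM), *Slc17a7* (141 CPM), *Prss12* (7.88 CPM) and *Htr2a* (21.4 CPM), library 4 for *Dlgap1* (109 CPM) and *Mfsd2a* (57.3 CPM), and library 5 for *Aplnr* (14.2 CPM).

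For 15 described genes the change from P14 to P56 differed between striatum and mPFC in the edgeR interaction test. Striatum minus mPFC, on the log2 scale, was -13.86 for *Ttr*, -3.50 for *F5*, -1.37 for *Tcfl5*, -1.33 for *Col9a3*, -1.0 for *Fabp7*, -0.94 for *Gpr17* and -0.69 for *Pdgfra*. It was 0.63 for *Rims1*, 0.64 for *Tubb2b*, 0.83 for *Cacnb2*, 1.20 for *Abca8a*, 1.20 for *Slc5a7*, 1.44 for *Rpe65*, 1.67 for *Ddit4l* and 1.89 for *Tac1*. With the mouse as a block, *Tcfl5*, *Cacnb2*, *Rims1*, *Tac1* and *Slc5a7* still passed. *Ttr* and *F5* were highest in the P14 libraries with choroid plexus genes, and the part of that tissue was not tested. Those libraries were picked out by the choroid plexus list, which holds *Ttr*, so a list gene's high level there follows from that choice.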

How the results depend on the processing

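Among gene counts, total-count scaling gave 1853 higher, the filter of at least 1 CPM in 5 libraries 1107 at 2-fold, and leaving out P14 striatum 1 and 4 gave 1879 higher, 2327 lower and 1147 at 2-fold. Without these 2 libraries 3702 contigs were higher. Ratios higher and lower numbered 446 and 423 without P56 striatum 2, 3 and 4, 393 and 363 without all 5, and genes that differed from mPFC 334 without P14 striatum 1 and 4 and 2140 without P56 striatum 2, 3 and 4. With TMM factors of the contigs, 4840 contigs were higher and 5634 lower. Apart from these, the replicate block and single libraries, given next, the counts stayed within 1.5 times under the alternatives run. *Pvalb* went from -0.03 to 1.86 (log2) without P14 striatum 1 and 4, 0.81 without all 5 and -1.07 without P56 striatum 2, 3 and 4. *Mef2c*, *Prss12* and *Slc17a7*, which did not pass, turned from 0.50, 1.31 and 1.51 to -0.40, -0.73 and -1.66 without all 5, and *Fgfr2*, *Ppp1r1b* and *Ube3a*, at 0.04, 0.22 and 0.09, also changed sign in 1 or more alternatives. The cause of these shifts was not tested.

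With 1 library left out, genes numbered 2220 to 3154 higher, 2817 to 4217 lower and 1496 to 2497 at 2-fold, contigs 4336 to 6067 higher and 3608 to 5013 lower, ratios 490 (without P56 striatum 5) to 733 higher and 455 to 620 lower, and genes that differed from mPFC 420 (without P56 striatum 4) to 2281 (without P56 striatum 2).

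With a replicate block, 1935 genes were higher and 2499 lower, and contigs numbered 3742 higher and 3009 lower. Same-numbered P14 and P56 libraries had deviations correlated by -0.48 to 0.22, come from different mice and share only a number. The mouse block of the mPFC comparison, where a number is 1 mouse, gave 299 genes. Same-numbered mPFC and striatum libraries had deviations correlated by -0.14 to 0.25 at P14 and by -0.09 to 0.28 at P56. Depth limited genes under 10 reads in 3 libraries, which were not tested.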
